A study of Mus musculus with 18 samples.

Results

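The 44 genes described here drive or mark cell division, and they were chosen by name: 18 act in S phase, 23 act in or mark mitosis, and 3 control passage through G1. All 44 were among the 30452 genes measured, and all 44 reached 1 FPKM (fragments per transcript length and library depth, a level that can be compared between genes) in at least 3 libraries, as did 11936 genes in all. They were measured by sequencing of polyadenylated RNA from MC3T3-E1, a mouse cell line of pre-osteoblasts. Cells were seeded at 20000 per well on 15 mm discs and cultured for 5 days on plain PLLA (poly-L-lactic acid, a polyester), on PLLA with zinc oxide (PLLA/ZnO), or on PLLA/ZnO with collagen (PLLA/ZnO@Col). On each membrane 3 libraries came from cells without ultrasound (-US) and 3 from cells given ultrasound for 10 min every day (+US), which makes 6 groups and 18 libraries. No group was grown on a surface without PLLA, and the -US libraries of each membrane are the controls for its ultrasound. The series asks whether these piezoelectric membranes favour bone formation.

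Entry into S phase is controlled by the retinoblastoma and E2F pathway. Cyclin D with its kinases starts the release of E2F factors, which switch on cyclin E and the genes for origin licensing, replication and nucleotide supply. Genes needed later, in G2 and mitosis, are switched on through FoxM1, B-Myb and the MuvB complex, the last of which binds a promoter element called the CHR. Pre-osteoblasts divide before they mature into matrix-forming cells, and their division genes fall as they leave the cycle. In bulk RNA, fewer cycling cells and less of these RNAs per cycling cell cannot be told apart.

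The promoter windows of the members differ between the S phase and the mitosis lists in the elements they hold, and 6 are shown, 3 of each list, so that these elements can be seen in place. Windows run from 250 bases before to 50 bases after each gene's RefSeq start on GRCm38.p6 and are written 5′ to 3′ on the gene's strand, in lower case. Capitals mark matches, on either strand, to the CHR (TTTGAA), to the box bound by NF-Y (CCAAT) or to an E2F site, searched in the forms TTCCCGC or TTGGCGC or TTCGCGC or TTGCCGC. The first 3 belong to mitosis genes, Plk1 (chr7:122159185-122159484, plus strand), Cdc20 (chr4:118437294-118437593, minus strand) and Cenpf (chr1:189688037-189688336, minus strand). The other 3 belong to S phase genes, Mcm3 (chr1:20820263-20820562, minus strand), Cdt1 (chr8:122567765-122568064, plus strand) and E2f8 (chr7:48881547-48881846, minus strand).
Plk1: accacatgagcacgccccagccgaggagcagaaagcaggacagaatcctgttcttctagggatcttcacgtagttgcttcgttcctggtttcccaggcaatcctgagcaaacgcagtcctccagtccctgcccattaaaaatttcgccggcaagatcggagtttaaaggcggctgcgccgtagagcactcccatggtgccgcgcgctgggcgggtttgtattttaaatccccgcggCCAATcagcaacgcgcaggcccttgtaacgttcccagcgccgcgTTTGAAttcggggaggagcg
Cdc20: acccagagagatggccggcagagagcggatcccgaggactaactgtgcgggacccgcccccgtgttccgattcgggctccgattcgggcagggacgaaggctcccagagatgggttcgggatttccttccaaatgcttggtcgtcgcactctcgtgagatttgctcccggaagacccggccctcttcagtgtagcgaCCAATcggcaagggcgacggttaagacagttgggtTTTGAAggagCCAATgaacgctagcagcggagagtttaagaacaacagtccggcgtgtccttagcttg
Cenpf: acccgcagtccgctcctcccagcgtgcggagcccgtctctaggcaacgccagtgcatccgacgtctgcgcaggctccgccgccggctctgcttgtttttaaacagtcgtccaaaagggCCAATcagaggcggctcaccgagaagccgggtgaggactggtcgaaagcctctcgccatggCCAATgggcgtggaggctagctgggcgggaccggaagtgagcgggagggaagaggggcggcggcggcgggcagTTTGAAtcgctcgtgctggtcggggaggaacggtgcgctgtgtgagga
Mcm3: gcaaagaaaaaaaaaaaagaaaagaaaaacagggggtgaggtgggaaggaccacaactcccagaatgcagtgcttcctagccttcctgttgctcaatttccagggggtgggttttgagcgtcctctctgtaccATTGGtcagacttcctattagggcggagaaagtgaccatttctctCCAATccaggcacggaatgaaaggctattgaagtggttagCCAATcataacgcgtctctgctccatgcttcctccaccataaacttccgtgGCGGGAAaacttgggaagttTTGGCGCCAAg
Cdt1: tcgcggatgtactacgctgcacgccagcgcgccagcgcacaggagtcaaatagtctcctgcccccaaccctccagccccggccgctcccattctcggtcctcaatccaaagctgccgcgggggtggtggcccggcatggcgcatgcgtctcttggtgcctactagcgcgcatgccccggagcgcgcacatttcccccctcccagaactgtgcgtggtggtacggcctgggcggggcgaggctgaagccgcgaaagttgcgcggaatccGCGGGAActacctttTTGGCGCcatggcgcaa
E2f8: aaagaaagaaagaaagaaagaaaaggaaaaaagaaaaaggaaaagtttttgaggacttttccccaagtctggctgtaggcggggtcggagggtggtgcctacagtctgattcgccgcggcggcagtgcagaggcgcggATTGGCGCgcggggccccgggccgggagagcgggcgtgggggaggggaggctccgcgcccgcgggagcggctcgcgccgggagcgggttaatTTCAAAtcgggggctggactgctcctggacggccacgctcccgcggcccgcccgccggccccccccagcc
Each of the 3 mitosis windows holds a CHR match and 1 or 2 CCAAT matches, whereas the Cdt1 and Mcm3 windows hold E2F matches and no CHR. E2f8, which encodes a repressor that acts on other E2F targets, holds all 3 kinds, and its E2F match overlaps a CCAAT match on the opposite strand.

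RefSeq windows were matched for 35 of the 44 members, 18 of them mitosis genes and 15 of them S phase genes. The members without one were Kif20a, Foxm1, Tpx2, Ccna2, Ccnd1, Mcm4, Gins2, Ccne2 and Aurkb. A CHR match was present for 13 of 18 mitosis members and 3 of 15 S phase members, against 12.05% of the 10872 windows of tested genes and 17.89% of all 32851 windows. The 3 S phase members with a CHR match were Cdc45, Mcm2 and E2f8. An E2F match was present for 9 of 15 S phase members and 3 of 18 mitosis members (Ccnb1, Cdk1 and Mki67), against 17.23% of tested-gene windows. CCAAT matches were common in both lists, at 16 of 18 mitosis and 10 of 15 S phase members, against 38.42% of tested-gene windows. These are letter matches in 1 window per start and say nothing on whether a factor was bound in these cells.

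**Figure D1:**
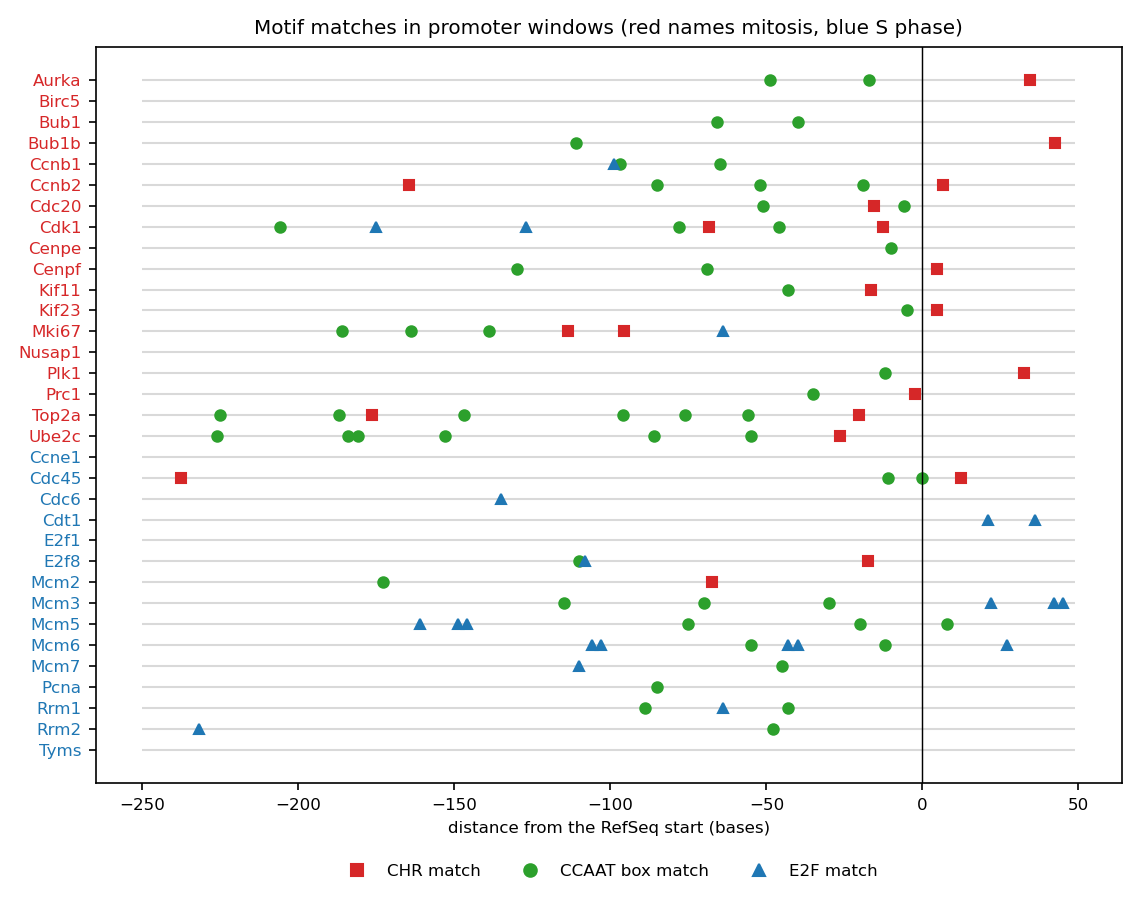
Positions of CHR, CCAAT and E2F matches in the RefSeq promoter windows of the mitosis (red names) and S phase (blue names) members. The x axis is the distance in bases from the annotated start, and for the genes with 2 windows the one with the lower coordinate is drawn; CHR matches lie mostly in the mitosis rows and E2F matches mostly in the S phase rows.

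Libraries held between 48307580 and 78039543 counts. Whether replicates were separate cultures is not in the labels, so p-values reflect the spread among these libraries alone, which may be technical. Osteoblast markers were mixed: Runx2, Spp1, Col1a1 and Col1a2 passed 1 FPKM in 3 libraries, and Sp7, Alpl, Bglap and Ibsp did not. Of the 6 markers named for each type, 5 of epithelium, 5 of endothelium and 4 of adipocytes were in the data. These stayed at or below 0.814 FPKM in every library. Of 10 macrophage and osteoclast markers 7 passed, led by Lyz2 at up to 26.8 FPKM, while the leukocyte gene Ptprc was at most 0.0935 FPKM. The summed FPKM of 4 Y-linked genes split the libraries. On PLLA/ZnO@Col, +US replicate 1 and -US replicates 1 and 3 held 0.185 to 0.386. A part, 2.55 to 6.10, was held by replicate 3 of PLLA +US, replicate 3 of PLLA/ZnO +US and, on PLLA/ZnO@Col with ultrasound, replicates 2 and 3. The other 11 libraries held 10.5 to 21.8. The summed level of the macrophage and osteoclast markers was 13.6 to 17.6 FPKM in the 4 libraries with part of the Y-linked reads, 15.2 in PLLA/ZnO -US replicate 3 and 23.7 to 44.2 in the other 13, and its part in the results was not tested.

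No member was called in any of the 10 comparisons made (edgeR quasi-likelihood test, adjusted p under 0.05 over 11936 genes), and neither was any other gene, so the share of genes called was 0.0% in each. DESeq2 called 2 members, Cdt1 and E2f8, in the comparison of collagen without ultrasound, and none elsewhere. Limma on log2(FPKM + 1) called none. What follows therefore describes levels and their spread, with fold changes that did not pass the test, and counts at an unadjusted edgeR p under 0.05 set beside the share of all genes that reached it.

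The S phase genes as a list varied over a narrower range of levels than the mitosis genes. The mean log2 FPKM of the 18 S phase members was 4.44 ± 0.0095 (SD, n = 3) on PLLA -US, 4.34 ± 0.15 on PLLA/ZnO -US and 4.48 ± 0.12 on PLLA/ZnO@Col -US. The +US means were 4.49 ± 0.041, 4.51 ± 0.034 and 4.59 ± 0.10 on the same membranes. Replicate 3 of PLLA/ZnO -US was lowest at 4.17 and replicate 2 of PLLA/ZnO@Col +US highest at 4.68. For the 23 mitosis members the mean log2 FPKM was 4.66 ± 0.17 on PLLA -US, 4.49 ± 0.14 on PLLA/ZnO -US and 4.55 ± 0.15 on PLLA/ZnO@Col -US. In the +US groups it was 4.70 ± 0.22, 4.53 ± 0.38 and 4.36 ± 0.12. Its lowest library was PLLA/ZnO +US replicate 3 at 4.09, although replicates of that group reached 4.75, and its highest was PLLA +US replicate 2 at 4.91. The gap between the lists, mitosis minus S phase, was 0.22 ± 0.18 on PLLA -US, 0.15 ± 0.13 on PLLA/ZnO -US and 0.07 ± 0.17 on PLLA/ZnO@Col -US. In the +US groups the gap was 0.21 ± 0.24, 0.02 ± 0.41 and -0.22 ± 0.22 on the same membranes. Single libraries ran from -0.45 to 0.42. The part of transcript base composition, described below, in this gap was not tested.

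**Figure D2:**
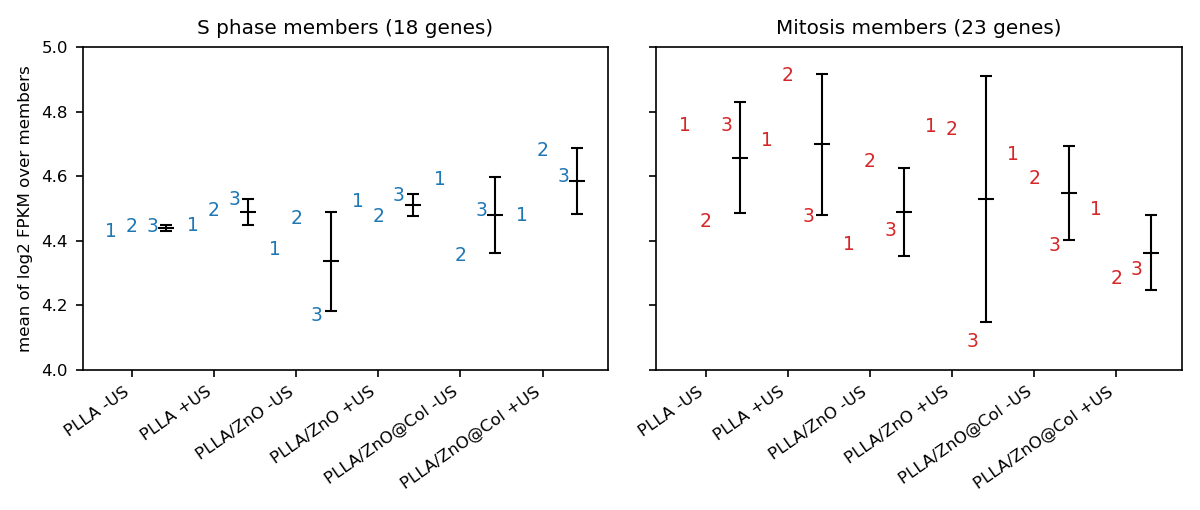
Mean log2 FPKM over the S phase members (left) and the mitosis members (right) in each library, on an axis from 4 to 5. Digits give the replicate number, and the bar to the right of each group is its mean with SD over 3 libraries; replicate 3 of PLLA/ZnO +US stands lowest in the mitosis panel at 4.09.

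Among the genes that gate G1, Ccnd1 encodes cyclin D1, which activates the first kinases of the cycle, and was the most abundant member at a median of 187.2 FPKM. Without ultrasound Ccnd1 was at 166.8, 187.8 and 172.9 FPKM on PLLA, 176.1, 151.7 and 173.3 on PLLA/ZnO and 193.2, 186.6 and 170.1 on PLLA/ZnO@Col. With ultrasound it was at 186.4, 160.3 and 224.4, at 196.7, 195.9 and 253.5 and at 193.2, 263.0 and 229.0 FPKM in the same order of membranes. All 3 PLLA/ZnO +US libraries lay above all 3 PLLA/ZnO -US libraries. On PLLA/ZnO@Col the ranges only met, since replicate 1 read 193.2 FPKM with and without ultrasound.

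Cdkn1a encodes p21, an inhibitor of cyclin-dependent kinases and a p53 target. Cdkn1a was at 76.5, 89.98 and 77.2 FPKM on PLLA -US, 83.8, 82.3 and 96.3 on PLLA/ZnO -US and 81.6, 73.4 and 123.4 on PLLA/ZnO@Col -US. On the membranes with ultrasound Cdkn1a was at 90.6, 92.3 and 124.5, at 86.6, 93.2 and 119.8 and at 117.3, 120.8 and 101.6 FPKM. The highest libraries were replicate 3 of PLLA +US, replicate 3 of PLLA/ZnO@Col -US, replicate 2 of PLLA/ZnO@Col +US and replicate 3 of PLLA/ZnO +US, so they came from 4 groups. Cdkn1b encodes p27, which holds back cyclin E kinase. The -US libraries held Cdkn1b at 15.0, 16.5 and 15.2 FPKM on PLLA, 14.8, 15.2 and 17.5 on PLLA/ZnO and 14.7, 15.5 and 13.4 on PLLA/ZnO@Col. The +US libraries held 14.9, 12.7 and 13.3 FPKM on PLLA, 14.1, 16.3 and 7.04 on PLLA/ZnO and 15.1, 11.2 and 10.7 on PLLA/ZnO@Col. Only PLLA/ZnO +US replicate 3 stood far from the rest.

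E2f1, the activating E2F that drives S phase genes, kept close to its median of 18.9 FPKM. For E2f1 the -US libraries read 18.4, 19.5 and 17.5 FPKM on PLLA, 17.9, 19.7 and 18.7 on PLLA/ZnO and 16.5, 19.0 and 20.5 on PLLA/ZnO@Col. Its +US readings were 19.2, 17.6 and 21 FPKM on PLLA, 17.8, 17.6 and 21.5 on PLLA/ZnO and 17.7, 24.1 and 23.8 on PLLA/ZnO@Col. The highest readings were replicates 2 and 3 of PLLA/ZnO@Col +US, and replicate 1 of that group lay within the other groups. E2f8, an atypical E2F that represses E2F targets late in S phase, was among the least abundant members. In cells without ultrasound, E2f8 read 7.15, 6.5 and 6.98 FPKM on PLLA, 4.84, 4.29 and 4.72 on PLLA/ZnO and 8.4, 6.40 and 4.91 on PLLA/ZnO@Col. Ultrasound groups read 6.67, 7.89 and 7.85, at 6.07, 6.72 and 6.80 and at 8.04, 8.15 and 8.18 FPKM, in the same order of membranes. The 3 PLLA/ZnO -US libraries were the lowest of the 18, below all libraries of PLLA -US, PLLA/ZnO +US and PLLA/ZnO@Col -US, although PLLA/ZnO@Col -US replicate 3 followed closely at 4.91 FPKM.

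Ccne2, a cyclin E that activates Cdk2 at the start of S phase, varied more than any other S phase member. Without ultrasound Ccne2 was at 10.2, 4.44 and 9.09 FPKM on PLLA, 5.32, 9.38 and 5.88 on PLLA/ZnO and 4.46, 10.5 and 2.85 on PLLA/ZnO@Col. With ultrasound it was at 6.87, 8.05 and 1.88, at 7.14, 7.67 and 1.47 and at 3.90, 2.92 and 3.65 FPKM in the same order of membranes. Its 5 lowest libraries came from 4 groups, and replicates of 1 group differed by several fold, as 1.47 and 7.67 FPKM on PLLA/ZnO +US show. The ranges overlapped in all comparisons. Its paralogue Ccne1 stayed between 7.93 and 14.02 FPKM.

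Licensing of replication origins needs Cdc6 and Cdt1, which load the Mcm2 to Mcm7 helicase onto DNA. Cdc6 was at 8.02, 8.04 and 6.88 FPKM on PLLA -US, 7.17, 7.81 and 5.65 on PLLA/ZnO -US and 9.52, 7.40 and 8.4 on PLLA/ZnO@Col -US. On the membranes with ultrasound Cdc6 was at 7.89, 7.27 and 9.47, at 8.26, 7.40 and 10.6 and at 9.6, 10.6 and 9.21 FPKM. These ranges overlapped on every membrane. The -US libraries held Cdt1 at 12.0, 12.7 and 12.4 FPKM on PLLA, 13.1, 11.0 and 10.4 on PLLA/ZnO and 21.9, 13.8 and 22.3 on PLLA/ZnO@Col. The +US libraries held 12.3, 14.6 and 16.6 FPKM on PLLA, 14, 13.6 and 17.9 on PLLA/ZnO and 23.9, 20.7 and 17.8 on PLLA/ZnO@Col. Of the 6 libraries from PLLA/ZnO@Col, 5 lay at 17.8 FPKM or above, and the only other library that high was PLLA/ZnO +US replicate 3.

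Among the helicase subunits Mcm2 and Mcm5 are given in full. For Mcm2 the -US libraries read 27.8, 32.6 and 28.8 FPKM on PLLA, 30.8, 21.8 and 26.1 on PLLA/ZnO and 43.0, 25.4 and 35.1 on PLLA/ZnO@Col. Its +US readings were 32.9, 29.6 and 33.8 FPKM on PLLA, 33.7, 31.4 and 38.1 on PLLA/ZnO and 39.6, 47.5 and 41.2 on PLLA/ZnO@Col. The PLLA/ZnO@Col +US libraries lay above all PLLA/ZnO +US libraries, which in turn lay above all PLLA/ZnO -US libraries. In cells without ultrasound, Mcm5 read 36.6, 45.8 and 41.4 FPKM on PLLA, 43.8, 39.1 and 36.2 on PLLA/ZnO and 58.3, 31.7 and 63.1 on PLLA/ZnO@Col. Ultrasound groups read 45.4, 42.3 and 48.1, at 45.6, 42.9 and 58.3 and at 65.7, 67.6 and 57.9 FPKM, in the same order of membranes. High Mcm5 readings were found in 2 libraries of PLLA/ZnO@Col -US, in each one of PLLA/ZnO@Col +US and in replicate 3 of PLLA/ZnO +US, while PLLA/ZnO@Col -US replicate 2 was the lowest of all. Mcm3 ranged from 47.3 to 84.7 FPKM, Mcm4 from 24.5 to 44.2, Mcm6 from 46.1 to 67.6 and Mcm7 from 45.7 to 85.1. Cdc45 and Gins2, which complete the active helicase, ranged from 9.15 to 16.8 and from 7.67 to 15.9 FPKM.

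Pcna, the sliding clamp of DNA polymerases, was the most abundant S phase member. Without ultrasound Pcna was at 107.6, 110.8 and 114.2 FPKM on PLLA, 117.5, 133.9 and 89.6 on PLLA/ZnO and 83.3, 100.8 and 88.9 on PLLA/ZnO@Col. With ultrasound it was at 109.5, 111.3 and 78.1, at 122.1, 120.3 and 93.3 and at 71.7, 94.4 and 91.3 FPKM in the same order of membranes. Replicate 2 of PLLA/ZnO -US was highest and replicate 1 of PLLA/ZnO@Col +US lowest, and the groups overlapped in each comparison. Rrm2, the regulated subunit of the reductase that makes deoxynucleotides, was nearly flat. Rrm2 was at 38.1, 41.1 and 38.2 FPKM on PLLA -US, 37.8, 42.3 and 30.8 on PLLA/ZnO -US and 41.9, 38.9 and 38.0 on PLLA/ZnO@Col -US. On the membranes with ultrasound Rrm2 was at 37.6, 43.7 and 51.7, at 40.8, 41.9 and 43.1 and at 35.4, 42.4 and 43.0 FPKM. Its extremes were PLLA/ZnO -US replicate 3 and PLLA +US replicate 3. Its partner Rrm1 ranged from 21.5 to 35.5 FPKM and Tyms, the thymidylate synthase, from 8.78 to 13.4.

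Foxm1 encodes the transcription factor that drives late cell cycle genes. The -US libraries held Foxm1 at 29.8, 30.6 and 30.0 FPKM on PLLA, 26.1, 21 and 25.8 on PLLA/ZnO and 40.0, 28.9 and 27.4 on PLLA/ZnO@Col. The +US libraries held 31.4, 32.6 and 36.8 FPKM on PLLA, 30.2, 30.7 and 31.8 on PLLA/ZnO and 34.6, 38.6 and 38.4 on PLLA/ZnO@Col. The PLLA/ZnO -US libraries lay below those of PLLA -US, PLLA/ZnO +US and PLLA/ZnO@Col -US. Cdk1 is the kinase that starts mitosis, and Ccnb1 encodes its partner cyclin B1. For Cdk1 the -US libraries read 25.8, 29.1 and 27.9 FPKM on PLLA, 29.9, 36.7 and 24.7 on PLLA/ZnO and 26.8, 23.5 and 33.5 on PLLA/ZnO@Col. Its +US readings were 31.2, 30.8 and 39.1 FPKM on PLLA, 31.3, 32.3 and 33.4 on PLLA/ZnO and 24.3, 32.7 and 30.5 on PLLA/ZnO@Col. On PLLA all +US libraries lay above all -US libraries, and on the other membranes they overlapped. In cells without ultrasound, Ccnb1 read 23.5, 24.4 and 23.7 FPKM on PLLA, 22.1, 23.9 and 20.6 on PLLA/ZnO and 18.4, 20.1 and 16.4 on PLLA/ZnO@Col. Ultrasound groups read 24.7, 26.2 and 22.4, at 25.8, 25.9 and 19.6 and at 17.9, 20.3 and 20.0 FPKM, in the same order of membranes. The 6 libraries from PLLA/ZnO@Col were at most 20.3 FPKM, and of the other 12 only PLLA/ZnO +US replicate 3 was lower than that. Ccnb2, the other B-type cyclin, ranged from 29.6 to 44.8 FPKM, and Ccna2, the cyclin of S phase and early mitosis, from 30.2 to 56.7.

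Plk1, a kinase of spindle assembly and mitotic exit, had the smallest unadjusted p of the members for ultrasound on PLLA, on PLLA/ZnO and averaged over the membranes. Without ultrasound Plk1 was at 49.9, 56.6 and 51.4 FPKM on PLLA, 49.4, 48.6 and 46.1 on PLLA/ZnO and 67.1, 42.1 and 68.2 on PLLA/ZnO@Col. With ultrasound it was at 61.5, 66.3 and 76.0, at 64.7, 61.3 and 83.0 and at 64.2, 78.5 and 74.4 FPKM in the same order of membranes. On PLLA and on PLLA/ZnO every +US library lay above every -US library, and on PLLA/ZnO@Col the ranges overlapped because of -US replicates 1 and 3. Aurka, the Aurora kinase of centrosomes and spindle poles, came next on PLLA and in the average. Aurka was at 31.1, 31.3 and 30.3 FPKM on PLLA -US, 29.4, 30.2 and 26.2 on PLLA/ZnO -US and 34.3, 27.5 and 32.8 on PLLA/ZnO@Col -US. On the membranes with ultrasound Aurka was at 34.1, 35.3 and 45.1, at 36.5, 34.7 and 44.2 and at 31.1, 43.9 and 38.5 FPKM. Here too the groups were apart on PLLA and PLLA/ZnO and overlapped on PLLA/ZnO@Col. Aurkb is the Aurora kinase of the chromosomal passenger complex, which corrects spindle attachment. The -US libraries held Aurkb at 23.2, 26.5 and 25.3 FPKM on PLLA, 22.9, 21.7 and 20.5 on PLLA/ZnO and 29.3, 20.1 and 26.2 on PLLA/ZnO@Col. The +US libraries held 23.9, 25.4 and 31.4 FPKM on PLLA, 25.2, 25.6 and 28.5 on PLLA/ZnO and 26.0, 31.7 and 29.0 on PLLA/ZnO@Col. Its groups were apart on PLLA/ZnO alone, and Birc5, another subunit of that complex, ranged from 18.2 to 36.0 FPKM.

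Cdc20 activates the ubiquitin ligase that ends metaphase. For Cdc20 the -US libraries read 45.6, 59.1 and 52.2 FPKM on PLLA, 52.0, 52.7 and 45.8 on PLLA/ZnO and 73.7, 42.4 and 95.0 on PLLA/ZnO@Col. Its +US readings were 63.3, 59.9 and 76.8 FPKM on PLLA, 65.7, 62.0 and 82.2 on PLLA/ZnO and 82.2, 85.5 and 67.9 on PLLA/ZnO@Col. The 3 PLLA/ZnO@Col -US libraries held both the highest and the lowest reading of the 18. Ube2c, the conjugating enzyme of the same ligase, ranged from 29.6 to 59.1 FPKM, and the spindle checkpoint kinases Bub1b and Bub1 from 20.0 to 32.3 and from 2.48 to 15.0.

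Top2a, the topoisomerase that untangles chromosomes, and Mki67, the gene of the Ki-67 antigen by which proliferation is scored, had a different pattern. In cells without ultrasound, Top2a read 52.6, 40.2 and 48.3 FPKM on PLLA, 34.6, 49.9 and 38.1 on PLLA/ZnO and 35.3, 49.7 and 28.2 on PLLA/ZnO@Col. Ultrasound groups read 45.1, 54.4 and 26.6, at 44.7, 46.0 and 14.5 and at 31.3, 16.4 and 18.6 FPKM, in the same order of membranes. The 5 lowest libraries were replicate 3 of PLLA/ZnO +US, replicates 2 and 3 of PLLA/ZnO@Col +US, replicate 3 of PLLA +US and replicate 3 of PLLA/ZnO@Col -US. These 5 also had the 5 lowest mitochondrial shares of counts, 1.57 to 1.87%, against 2.16 to 4.54% in the other 13, and the part of this in the result was not tested. The mitochondrial share was 1.87 ± 0.355% (SD, n = 3) on PLLA/ZnO@Col +US and 2.84 ± 1.48% on PLLA/ZnO@Col -US. Without ultrasound Mki67 was at 65.5, 22.2 and 54.1 FPKM on PLLA, 26.2, 29.6 and 36.6 on PLLA/ZnO and 46.0, 59.5 and 17.8 on PLLA/ZnO@Col. With ultrasound it was at 43.4, 70.6 and 24.6, at 38.3, 38.1 and 14.3 and at 37.2, 16.6 and 21.8 FPKM in the same order of membranes. The same 5 libraries and PLLA -US replicate 2 held the 6 lowest Mki67 readings, and replicates of PLLA -US differed from 22.2 to 65.5 FPKM.

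The large motor and centromere genes varied likewise. Cenpf ranged from 1.19 to 10.1 FPKM and Cenpe from 1.94 to 13.9, both parts of the outer kinetochore, and Kif11, the kinesin that separates spindle poles, from 2.82 to 19.3. Nusap1, which stabilises spindle microtubules, ranged from 4.79 to 20.0 FPKM, and Kif23, a kinesin of the central spindle, from 4.29 to 10.7. Kif20a, another kinesin of the central spindle, kept between 32.5 and 50.4 FPKM, Tpx2, which activates Aurora A, between 30.5 and 47.8, and Prc1, which bundles central spindle microtubules, between 12.1 and 23.9.

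**Figure D3:**
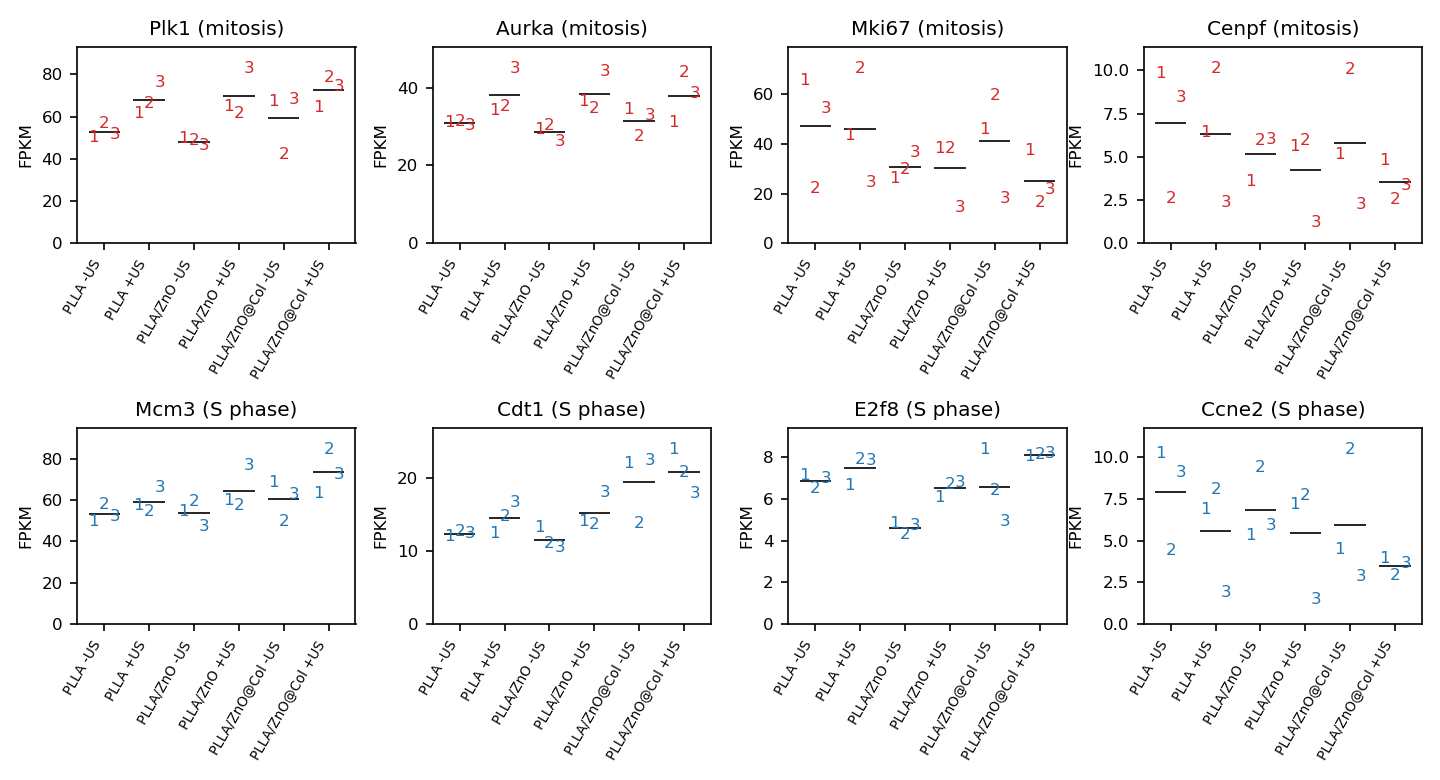
FPKM of 4 mitosis members (upper row) and 4 S phase members (lower row) in each library, by group; digits give the replicate number and the line is the group mean. Plk1 and Aurka lie higher with ultrasound on PLLA and PLLA/ZnO, E2f8 is lowest on PLLA/ZnO -US, and Mki67, Cenpf and Ccne2 spread widely within groups.

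These unlike patterns within 1 list went in part with the base composition of the transcripts. The GC content of the longest coding transcript had a median of 48.1% over the members and 50.03% over all tested genes. The 8 widest members had a GC content below that median: Ccne2 (36.3% GC), Bub1 (41.0%), Nusap1 (41.8%), Kif11 (42.2%), Cenpe (42.9%), Cenpf (43.3%), Top2a (43.4%) and Mki67 (46.6%) each had an SD of log2 CPM (counts scaled to library size) between 0.589 and 0.880 over the 18 libraries. Low GC did not always come with a wide spread: Cdkn1b at 43.1%, Ccnb1 at 44.2% and Rrm1 at 44.4% GC were narrower, at 0.309, 0.186 and 0.197. Among the 8 widest, Cenpf (11130 bases), Mki67 (10061) and Cenpe (7910) also had the longest transcripts of the members. Ccne2 (3006 bases), Bub1 (3421) and Nusap1 (3526) were shorter, and the part of length in the spread was not tested. Split at their median GC of 48.1%, the 44 members gave 22 genes below it and 22 above it, called AT-rich and GC-rich here. The names are relative to the members: some GC-rich ones, such as Kif20a (48.4%) and Cdc45 (49.3%), lay below the median of all tested genes. Among mitosis members the median SD was 0.493 for the 14 AT-rich ones and 0.216 for the 9 GC-rich ones.

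The same slope was present in genes outside the set. Over 11881 other genes, the deviation of a library from the mean of the 18 changed with GC by -0.48 log2 units per 10 percentage points of GC in PLLA/ZnO@Col -US replicate 2 and by 0.76 in PLLA/ZnO +US replicate 3. Over the 44 members it changed by -0.62 and 1.15 in the same libraries. Pearson's r between GC and deviation over the 44 members lay between -0.84, in replicate 2 of PLLA/ZnO +US, and 0.80, in replicate 2 of PLLA/ZnO@Col +US, as a description across genes of 1 library, which are not independent. The 4 libraries with the steepest positive slope were replicate 3 of PLLA/ZnO +US, replicates 2 and 3 of PLLA/ZnO@Col +US and replicate 3 of PLLA +US, which are the 4 with part of the Y-linked reads.

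The slope was not spread evenly over the groups. Over the other genes it was -0.42, -0.050 and -0.30 on PLLA -US and -0.15, -0.26 and 0.40 on PLLA +US. On PLLA/ZnO it was -0.037, -0.37 and -0.13 without and -0.17, -0.22 and 0.76 with ultrasound. On PLLA/ZnO@Col it was -0.0030, -0.48 and 0.30 without and 0.13, 0.58 and 0.42 with ultrasound, so only that last group had a positive slope in all 3 libraries. An offset for GC, added after the data were seen, narrowed the range of the mitosis list over libraries from 0.849 to 0.467 log2 units. For the S phase list the range went from 0.506 to 0.639. The offset lowered the SD over libraries for 33 of 44 members, with a median SD of 0.252 before and 0.223 after, against 0.309 and 0.259 over all tested genes. It was fitted to these same libraries over all tested genes, members included, so a lower SD could follow from the fit itself. Because the slope differed between groups, the offset can also take away differences between them. Under it Mki67, Cenpf and Cenpe still had an SD of 0.571, 0.567 and 0.495, and that of Rrm1 rose from 0.197 to 0.435.

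**Figure D4:**
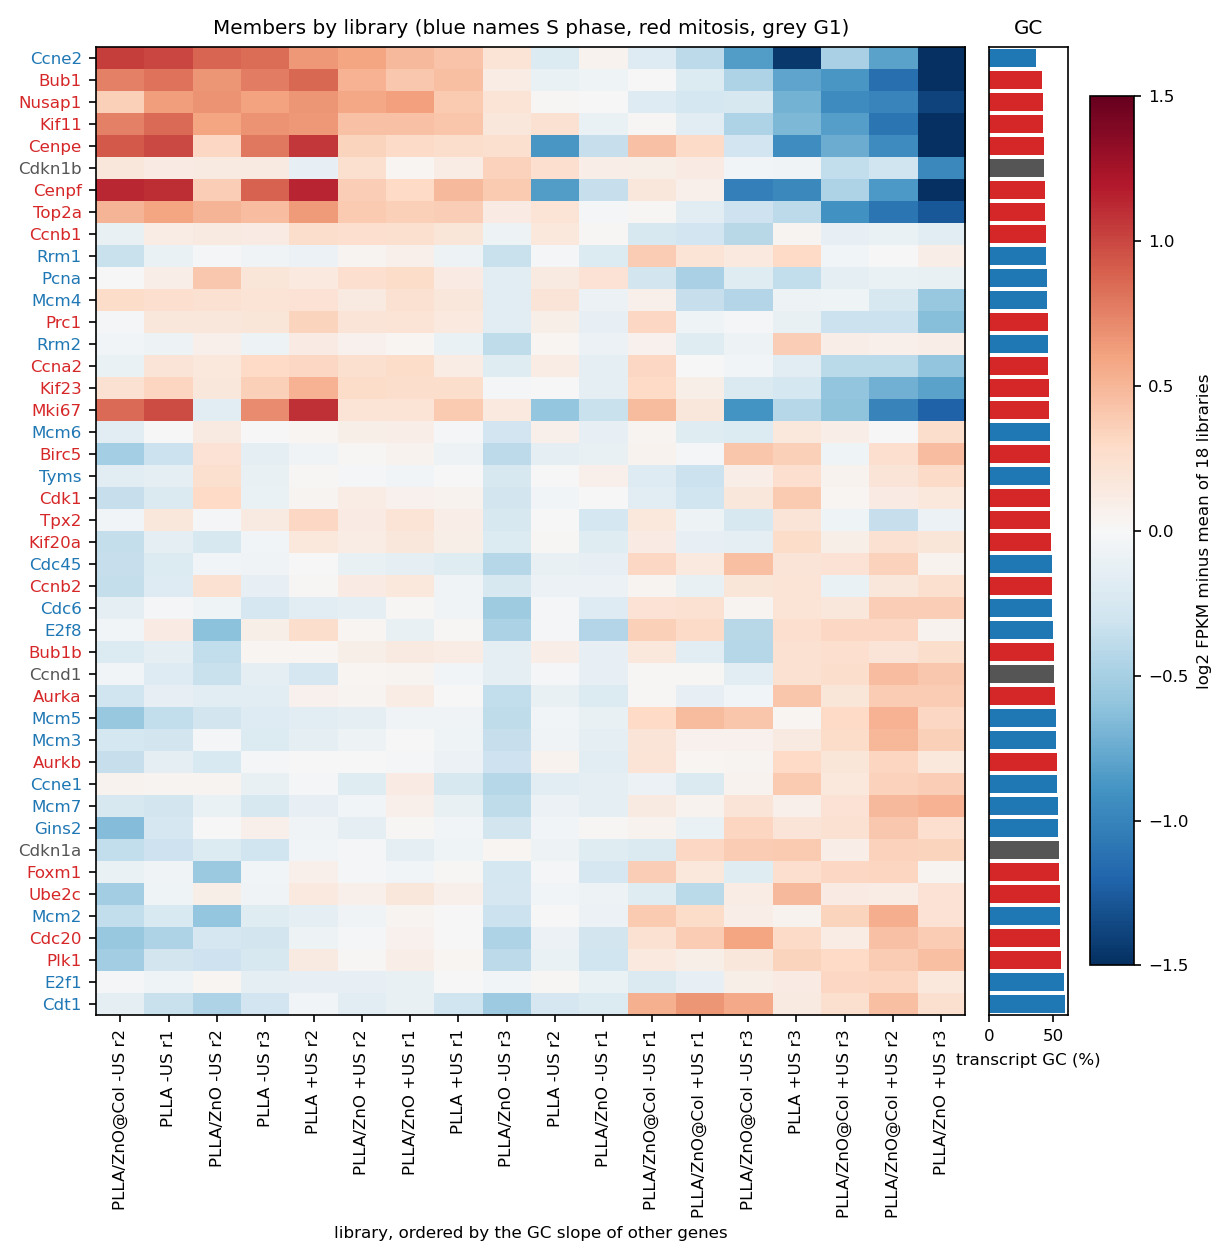
Log2 FPKM of each member minus its mean over 18 libraries (colour, saturated beyond 1.5 on either side), with genes ordered from low to high transcript GC and libraries ordered by the GC slope of all other genes; bars at the right give GC in percent. AT-rich members such as Ccne2, Top2a and Mki67 are high in the libraries at the left and low in those at the right, whereas Cdk1 and Rrm2, also AT-rich, are not. GC-rich members such as Plk1 and Cdc20 run the other way from Ccne2.

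Ultrasound was compared first on plain PLLA, which holds no zinc oxide. None of 44 members had an unadjusted p under 0.05 (0.436% of all genes did, 0.201% higher and 0.235% lower), and 30 of 44 were higher with ultrasound, against 50.5% of all genes. The groups did not overlap for 10 members that were higher and 1 that was lower, against 4.99% and 5.8% of all genes. Of the 10, 9 were mitosis genes (Plk1, Aurka, Cdk1, Ube2c, Kif20a, Cdc20, Birc5, Ccnb2 and Foxm1), and the other was Cdkn1a; the lower one was Cdkn1b. For Plk1 the log2 fold change was 0.33 ± 0.17 (SE), with an edgeR adjusted p of 0.98. Aurka gave a log2 ratio of 0.26 ± 0.14 (SE), at an edgeR adjusted p of 0.98. Among lower values, Pcna had a log2 fold change of -0.18 ± 0.18 (SE, edgeR adjusted p = 0.98). For Cdkn1b the log2 fold change was -0.22 ± 0.23 (SE), with an edgeR adjusted p of 0.98. The median log2 fold change was 0.08 over S phase and 0.07 over mitosis members, against 0.0025 over all genes. Without PLLA +US replicate 2 the mitosis median was -0.01. In the mitosis list, all 9 GC-rich members were higher, at a median of 0.20, and 4 of the 14 AT-rich ones, at a median of -0.09. With the GC offset these became 9 of 9 at 0.19 and 12 of 14 at 0.04.

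Ultrasound on PLLA/ZnO was compared next. Plk1 was at 69.7 ± 11.7 FPKM with and 48.0 ± 1.70 FPKM without ultrasound, and Aurka at 38.5 ± 5.07 FPKM and 28.6 ± 2.11 FPKM. An unadjusted p under 0.05 was reached by 11 of 44 members, all higher, while of all genes 3.24% did, 2.10% higher and 1.14% lower, and 33 of 44 were higher, against 46.3%. Those 11 were 4 S phase genes (E2f8, Mcm7, Cdc6 and Mcm2), 6 mitosis genes (Plk1, Aurka, Kif20a, Bub1b, Foxm1 and Cdc20) and Ccnd1. Plk1 gave a log2 ratio of 0.54 ± 0.17 (SE), at an edgeR adjusted p of 0.94. E2f8 had a log2 fold change of 0.50 ± 0.16 (SE, edgeR adjusted p = 0.94). For Aurka the log2 fold change was 0.43 ± 0.14 (SE), with an edgeR adjusted p of 0.94.

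Lower values on PLLA/ZnO came with wide errors. Cdkn1b gave a log2 ratio of -0.34 ± 0.23 (SE), at an edgeR adjusted p of 0.94. Top2a had a log2 fold change of -0.21 ± 0.39 (SE, edgeR adjusted p = 0.94). Of 44 members 13 did not overlap and were higher, against 6.82% of all genes, and none did not overlap and was lower, against 4.62%. These 13 add Cdt1, Aurkb and Rrm1 to the 11 and leave out Cdc6. Among them E2f8, Foxm1, Aurkb, Kif20a, Aurka and Plk1 were also lower without overlap on PLLA/ZnO -US than on PLLA -US. Both comparisons use those low PLLA/ZnO -US libraries, so they are not separate observations. The median log2 fold change was 0.24 over S phase and 0.10 over mitosis members, against -0.03 over all genes. Without replicate 3 of PLLA/ZnO +US, which had the steepest GC slope, that of Plk1 was 0.39 and the mitosis median 0.23. Without replicate 2 of PLLA/ZnO -US the mitosis median was 0.26. Leaving out 1 library in turn took that of Mcm7 as low as 0.22. In the mitosis list 9 of 9 GC-rich members were higher at a median of 0.37, and 7 of 14 AT-rich ones at -0.01, or 9 of 9 at 0.37 and 11 of 14 at 0.13 with the GC offset. Without the 4 libraries with part of the Y-linked reads, all 23 mitosis members were higher, at a median of 0.24, and 3 of 44 members in place of 11 had an unadjusted p under 0.05, against 1.06% of all genes.

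On PLLA/ZnO@Col ultrasound values differed between AT-rich and GC-rich mitosis genes. Top2a was at 22.1 ± 8.02 FPKM with and 37.8 ± 11.0 FPKM without ultrasound, and Kif11 at 9.61, 5.03 and 6.06 against 10.9, 18.1 and 7.81 FPKM in the libraries. Only Ccnd1 had an unadjusted p under 0.05, against 8.18% of all genes, 5.15% higher and 3.02% lower, and 28 of 44 members were higher, against 47.1%. For Ccnd1 the log2 fold change was 0.32 ± 0.14 (SE), with an edgeR adjusted p of 0.52. E2f8 gave a log2 ratio of 0.30 ± 0.16 (SE), at an edgeR adjusted p of 0.52. The lower values belonged to AT-rich members with wide errors. Top2a had a log2 fold change of -0.76 ± 0.39 (SE, edgeR adjusted p = 0.52). For Kif11 the log2 fold change was -0.81 ± 0.51 (SE), with an edgeR adjusted p of 0.53. Prc1 and Nusap1 did not overlap and were lower, against 5.74% of all genes, and Ccnd1 did not overlap and was higher, against 5.28%, though replicate 1 read 193.2 FPKM in both groups.

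The 9 GC-rich mitosis members were all higher with ultrasound on PLLA/ZnO@Col, at a median log2 fold change of 0.19, and 3 of the 14 AT-rich ones were, at a median of -0.58. With the GC offset those medians were 0.06 and -0.18, with 8 of 9 and 3 of 14 higher. The median over the S phase members was 0.10 and over all mitosis members 0.02, against -0.025 over all genes. Without replicate 2 of PLLA/ZnO@Col -US the S phase median was -0.01 and the mitosis median -0.17, and without replicate 2 of PLLA/ZnO@Col +US the mitosis median was -0.05. The S phase median was 0.39 and the mitosis median 0.046 once the 3 libraries that lacked Y-linked reads were dropped. That fit had 1 library left in PLLA/ZnO@Col -US.

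Zinc oxide was compared without ultrasound as PLLA/ZnO against PLLA, and most members were lower with it. E2f8 was at 4.62 ± 0.288 FPKM on PLLA/ZnO and 6.88 ± 0.334 FPKM on PLLA, and it alone had an unadjusted p under 0.05, against 0.293% of all genes that were lower and 0.896% that were higher (1.19% in all). E2f8 gave a log2 ratio of -0.56 ± 0.16 (SE), at an edgeR adjusted p of 1. Foxm1 had a log2 fold change of -0.30 ± 0.14 (SE, edgeR adjusted p = 1). Among higher values, Cdk1 had a log2 fold change of 0.15 ± 0.16 (SE, edgeR adjusted p = 1). Tyms gave a log2 ratio of 0.13 ± 0.15 (SE), at an edgeR adjusted p of 1. Tyms was at 11.6, 13.0 and 9.34 FPKM on PLLA/ZnO and 9.98, 11.1 and 10.2 FPKM on PLLA. Of 44 members 33 were lower, and 48.9% of all genes were higher. The 7 members that did not overlap were all lower, against 9.95% of all genes lower and 7.61% higher: E2f8, Foxm1, Tpx2, Aurkb, Kif20a, Aurka and Plk1. The median log2 fold change was -0.08 over S phase and -0.19 over mitosis members, and of the latter 3 of 23 were higher. It was -0.0051 over all genes. Without PLLA/ZnO -US replicate 3 the S phase median was 0.02.

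With ultrasound the same comparison of membranes left no member with an unadjusted p under 0.05 (1.27% of all genes, 0.679% higher and 0.586% lower) and none that did not overlap (2.03% of all genes higher and 5.91% lower). Mcm7 had a log2 fold change of 0.30 ± 0.16 (SE, edgeR adjusted p = 1). For Ccnd1 the log2 fold change was 0.23 ± 0.14 (SE), with an edgeR adjusted p of 1. Lower values were as small against their errors. Mki67 gave a log2 ratio of -0.58 ± 0.53 (SE), at an edgeR adjusted p of 1. E2f8 had a log2 fold change of -0.15 ± 0.16 (SE, edgeR adjusted p = 1). Mcm7 was at 62.4, 57.8 and 85.1 FPKM on PLLA/ZnO and 54.8, 54.5 and 62.4 on PLLA. Of 44 members 24 were higher, against 46.2% of all genes, with a median of 0.09 over S phase and -0.03 over mitosis members against -0.02 over all genes. Without PLLA/ZnO +US replicate 3 the S phase median was -0.0057 and the mitosis median 0.0014. Without PLLA +US replicate 2 the mitosis median was 0.05.

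Collagen without ultrasound, PLLA/ZnO@Col against PLLA/ZnO, gave the smallest unadjusted p of any member in the 10 comparisons, that of Cdt1. Cdt1 was at 19.3 ± 4.83 FPKM with collagen and 11.5 ± 1.43 FPKM without it, and E2f8 at 6.57 ± 1.75 FPKM and 4.62 ± 0.288 FPKM. An unadjusted p under 0.05 was reached by 6 of 44 members, all higher, while of all genes 12.9% did, 7.77% higher and 5.17% lower. They were Cdt1, E2f8, Mcm2 and Cdc45 of S phase and Foxm1 and Cdc20 of mitosis. For Cdt1 the log2 fold change was 0.79 ± 0.19 (SE), with an edgeR adjusted p of 0.11. E2f8 gave a log2 ratio of 0.55 ± 0.16 (SE), at an edgeR adjusted p of 0.17. Among lower values, Ccnb1 had a log2 fold change of -0.24 ± 0.13 (SE, edgeR adjusted p = 0.48). For Pcna the log2 fold change was -0.29 ± 0.18 (SE), with an edgeR adjusted p of 0.57.

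Of 44 members 33 were higher with collagen, against 55.0% of all genes. Cdt1, E2f8 and Foxm1 did not overlap and were higher, against 5.09% of all genes, and Ccnb1 did not overlap and was lower, against 6.31%. The median log2 fold change was 0.21 over S phase and 0.15 over mitosis members, against 0.04 over all genes. Of the S phase members 11 of 11 GC-rich ones were higher, at a median of 0.34, and 4 of 7 AT-rich ones, at 0.0099. With the GC offset the numbers were 10 of 11 at 0.37 and 4 of 7 at 0.09.

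This comparison depended on single libraries and on the tool. DESeq2 gave Cdt1 an adjusted p of 0.0086 and E2f8 one of 0.037, among 3.41% of all genes called, and edgeR with the GC offset gave Cdt1 one of 0.043, among 0.938%. The GC and length offset, under which Cdt1 was also called, called 2.07% of all genes. Over all alternatives the adjusted p of Cdt1 lay between 0.0086 and 0.78 and that of E2f8 between 0.037 and 0.92. Without PLLA/ZnO@Col -US replicate 2, the library with the steepest negative GC slope, edgeR called 9 members, all higher (Cdt1, Cdc20, Cdc45, Mcm5, Plk1, Mcm2, Rrm1, Foxm1 and Aurkb), among 8.70% of all genes. Without the 3 libraries lacking Y-linked reads, which leaves that replicate 2 as the only one of its group, the log2 fold change of Cdt1 was 0.23, the S phase median -0.07 and the mitosis median -0.02. Without PLLA/ZnO@Col -US replicate 1 the mitosis median was 0.02. Without those 3 libraries the value of E2f8 was 0.44. PLLA/ZnO -US serves as control here, as the ultrasound group's control on PLLA/ZnO and as the test group of zinc oxide without ultrasound. The low E2f8 of those 3 libraries therefore enters all 3 comparisons. So do their low readings of Foxm1, Aurkb, Kif20a, Aurka and Plk1.

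With ultrasound, collagen gave 2 of 44 members (4.5%) an unadjusted edgeR p under 0.05, Cdt1 and E2f8, both higher. That share lay below the 9.43% of all genes, 6.92% higher and 2.51% lower. Cdt1 gave a log2 ratio of 0.50 ± 0.19 (SE), at an edgeR adjusted p of 0.46. E2f8 had a log2 fold change of 0.35 ± 0.16 (SE, edgeR adjusted p = 0.53). Lower values were led by the clamp gene and cyclin B1. For Pcna the log2 fold change was -0.35 ± 0.18 (SE), with an edgeR adjusted p of 0.56. Ccnb1 gave a log2 ratio of -0.26 ± 0.13 (SE), at an edgeR adjusted p of 0.56. E2f8, Foxm1, Mcm2 and Cdc45 did not overlap and were higher, against 10.2% of all genes, and none did not overlap and was lower, against 5.08%. The median log2 fold change was 0.13 over S phase members with 12 of 18 higher and -0.17 over mitosis members with 5 of 23 higher, against 0.0030 and 50.4% over all genes. Of the AT-rich mitosis members none of 14 was higher, at a median of -0.24, and with the GC offset 3 of 14 were, at -0.09. Of the GC-rich ones 5 of 9 were higher, at 0.0094, and 3 of 9 at -0.05 with the offset.

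**Figure D5:**
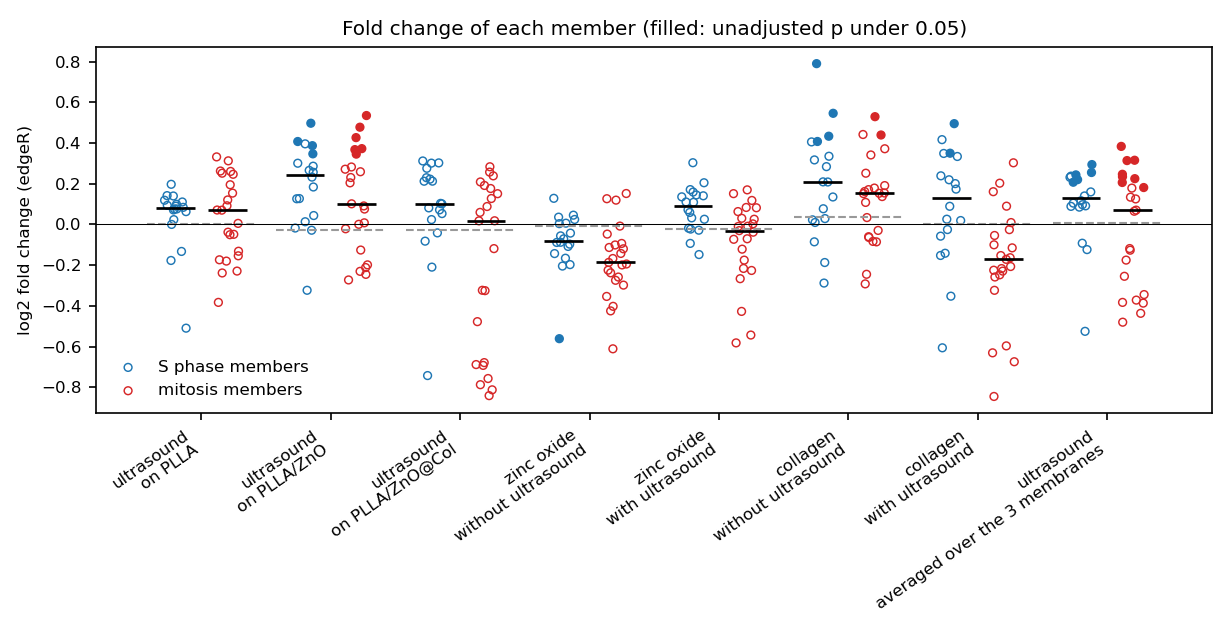
Log2 fold change of each S phase (blue) and mitosis (red) member by edgeR in 8 comparisons; black bars are list medians, dashed grey bars the median of all tested genes, and filled points have an unadjusted p under 0.05. Filled points are most numerous for ultrasound on PLLA/ZnO and for ultrasound averaged over the membranes, and no point passed an adjusted p under 0.05.

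Averaged over the 3 membranes, ultrasound gave 15 of 44 members an unadjusted p under 0.05, all higher, while of all genes 12.1% did, 6.33% higher and 5.77% lower. They were E2f8, Mcm2, Mcm3, Mcm7 and Cdc6 of S phase, Plk1, Aurka, Kif20a, Foxm1, Bub1b, Cdc20, Aurkb and Ube2c of mitosis, and Ccnd1 and Cdkn1a. Plk1 had a log2 fold change of 0.38 ± 0.10 (SE, edgeR adjusted p = 0.36). For Aurka the log2 fold change was 0.32 ± 0.083 (SE), with an edgeR adjusted p of 0.36. Among lower values, Cdkn1b had a log2 fold change of -0.27 ± 0.14 (SE, edgeR adjusted p = 0.36). Top2a had a log2 fold change of -0.38 ± 0.23 (SE, edgeR adjusted p = 0.37). The activator Ccnd1 and the inhibitor Cdkn1a were both higher, with log2 fold changes of 0.25 and 0.26. Of 44 members 30 were higher, against 51.3% of all genes. All 9 GC-rich mitosis members were higher at a median of 0.23, and 4 of 14 AT-rich ones at -0.21. With the GC offset the counts were 9 of 9 at 0.21 and 6 of 14 at -0.03.

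The averaged comparison moved with the libraries that stood apart by Y-linked reads. Without the 3 that lacked them, PLLA/ZnO@Col -US kept only replicate 2, the library with the steepest negative GC slope (-0.48). It was then set against +US replicates 2 and 3, with slopes of 0.58 and 0.42. The log2 fold change of Plk1 was 0.60 ± 0.089 (SE) in that fit. Members called there were all higher and all GC-rich, but 1 library stood for the -US group. Without the 4 libraries with part of the Y-linked reads, which leaves only replicate 1 of PLLA/ZnO@Col +US, the value of Plk1 was 0.27.

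Whether ultrasound acted differently on the membranes was tested by the differences of its effects, in log2 units. PLLA/ZnO minus PLLA gave no member with an unadjusted p under 0.05 (0.385% of all genes, 0.168% higher and 0.218% lower), with 35 of 44 values above 0, against 46.8%. For E2f8 the difference of effects was 0.41 ± 0.23 (SE), with an edgeR adjusted p of 1. Ccnd1 gave a difference of effects of 0.29 ± 0.20 (SE), at an edgeR adjusted p of 1. Below 0, Cdk1 had a difference of effects of -0.16 ± 0.22 (SE, edgeR adjusted p = 1). For Tyms the difference of effects was -0.10 ± 0.21 (SE), with an edgeR adjusted p of 1. PLLA/ZnO@Col minus PLLA/ZnO also gave none (2.20% of all genes, 1.71% higher and 0.494% lower), with 7 of 44 values above 0, against 42.8%. None of the 23 mitosis members was above 0 there, at a median of -0.33, against -0.05 over all genes. The median was -0.17 for the 9 GC-rich and -0.45 for the 14 AT-rich ones. With the GC offset 0 of 9 were above 0 at -0.22, and 1 of 14 at -0.32. E2f1 gave a difference of effects of 0.22 ± 0.18 (SE), at an edgeR adjusted p of 1. Cdkn1a had a difference of effects of 0.10 ± 0.26 (SE, edgeR adjusted p = 1). Below 0, the smallest p-values were those of a spindle and a nucleotide supply gene. For Tpx2 the difference of effects was -0.38 ± 0.20 (SE), with an edgeR adjusted p of 1. Rrm1 gave a difference of effects of -0.30 ± 0.23 (SE), at an edgeR adjusted p of 1. With those 3 libraries that lacked Y-linked reads left out, the mitosis median was -0.07 and the S phase median 0.10. Both differences use the 6 libraries on PLLA/ZnO, so they are not independent.

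Other genes of the same pathways were taken as lists, and again no gene passed the adjusted test. Of 34 further replication genes 20 were higher with averaged ultrasound, 5 of them with an unadjusted p under 0.05, and 1 of the lower ones reached it. Of all genes 51.3% were higher, and 12.1% had such a p, 6.33% higher and 5.77% lower. The smallest p belonged to Rfc5, a clamp loader subunit at a log2 fold change of 0.24 ± 0.092 (SE, as for the values that follow), and Uhrf1, which maintains DNA methylation at replication, at 0.24 ± 0.093. Of 41 further mitosis genes 20 were higher, 11 with an unadjusted p under 0.05, led by Ncaph, a condensin subunit at 0.26 ± 0.076, and Racgap1, a cytokinesis regulator at 0.22 ± 0.070. Of 18 further G1 genes 8 were higher and 2 of 18 reached it, Mybl2, the B-Myb factor of late cell cycle genes, at 0.26 ± 0.095, and Ccnd3 at 0.23 ± 0.11. The median log2 fold change was 0.09 over the replication, -0.04 over the mitosis and -0.04 over the G1 list, against 0.0086 over all genes, so the mitosis list held 11 genes with such a p and a median below 0.

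The same lists were read for ultrasound on single membranes. On PLLA 1 of 41 mitosis genes had an unadjusted p under 0.05, Ncaph at a log2 fold change of 0.30 ± 0.13 (SE), against 0.436% of all genes. On PLLA/ZnO 3 of 34 replication genes and 7 of 41 mitosis genes did, all higher, led by Rpa1 of the single-strand binding complex at 0.36 ± 0.14 and Racgap1 at 0.38 ± 0.12, against 3.24% of all genes and 2.10% higher. On PLLA/ZnO@Col 1 of 34 and 3 of 41 did, all higher, against 8.18% of all genes and 5.15% higher, led by Uhrf1 at 0.38 ± 0.16 and Nek2, a centrosome kinase, at 0.41 ± 0.14. Zinc oxide gave none in the replication, mitosis and G1 lists, without or with ultrasound, against 1.19% and 1.27% of all genes.

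Collagen without ultrasound had 27 of 34 replication genes higher, 7 with an unadjusted p under 0.05, led by Orc1, a subunit of the origin recognition complex, at a log2 fold change of 0.69 ± 0.20 (SE), and Pola2 of the polymerase that starts new strands at 0.51 ± 0.15. Of all genes 55.0% were higher, and 12.9% had such a p, 7.77% higher and 5.17% lower. In the G1 list 13 of 18 were higher and 4 reached it, led by E2f4 at 0.45 ± 0.12 and E2f2 at 0.67 ± 0.18, a repressing and an activating E2F. Of the 41 mitosis genes 25 were higher, 4 of them with such a p, and Cks2, a Cdk1 subunit, was lower at -0.68 ± 0.24 and was the 1 lower gene with such a p, so 5 of 41 mitosis genes had one, a share (12.2%) near that of all genes. The median was 0.18 over the replication, 0.14 over the G1 and 0.10 over the mitosis list, against 0.04 over all genes. With ultrasound 1 of 34 replication, 3 of 18 G1 and 5 of 41 mitosis genes had such a p, against 9.43% of all genes. There Chaf1a of the chromatin assembly factor was at 0.37 ± 0.13, E2f2 at 0.54 ± 0.18 and Cks2 at -0.63 ± 0.24.

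The p53 target list, which holds genes of cell cycle arrest, was read beside Cdkn1a. Zinc oxide with ultrasound had 2 of its 16 genes lower at an unadjusted p under 0.05, Btg2 at a log2 fold change of -0.56 ± 0.22 (SE) and Plk2 at -0.34 ± 0.16, against 0.586% of all genes. With collagen 12 of 16 were higher without ultrasound, at a median of 0.31, against 55.0% and 0.04 over all genes, and 14 of 16 with it, at 0.27, against 50.4% and 0.0030. An unadjusted p under 0.05 was reached by 5 of 16 without ultrasound, all higher, against 7.77% of all genes higher, and by 4 of 16 with it, all higher, against 6.92%. The smallest p belonged to Zmat3 at 0.53 ± 0.16 without ultrasound and to Plk2, a stress-induced kinase, at 0.60 ± 0.16 with it. With averaged ultrasound 11 of 16 were higher at a median of 0.03, against 51.3% and 0.0086 over all genes, and 4 of 16 had such a p, 3 higher and 1 lower, against 12.1%. Gadd45a, a stress-induced growth arrest gene, was lower at -0.56 ± 0.15, and Btg2, an antiproliferative factor, higher at 0.34 ± 0.13. On single membranes the Gadd45a value was -0.40 ± 0.26 on PLLA, -0.68 ± 0.26 on PLLA/ZnO and -0.59 ± 0.26 on PLLA/ZnO@Col.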

How the data were processed

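The series held 1 table of 18 libraries of polyadenylated RNA. Whole-number counts and FPKM values were deposited side by side, per the file headers. Per the submitters' processing notes, the authors used cutadapt 1.9, FastQC and GRCm38; which aligner and counter made the counts, and with what strand setting, is not given in the sources used here. A gene's count divided by its FPKM and the library's total count varied over libraries with a median CV of 1.43%, and no pair of replicates agreed within sampling noise (lowest chi-square per degree of freedom 12.23). Each library's group was taken from its title. The members and the gene lists were chosen with earlier results of these data known, so no list is independent evidence.

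Genes at 1 FPKM or more in at least 3 libraries were tested by edgeR's quasi-likelihood test (edgeR 4.0.16, R 4.3.3) on the deposited counts with TMM normalization, 1 fit of 18 libraries with group means and 12 residual df, two-sided, with Benjamini-Hochberg adjustment over 11936 genes per comparison. The common biological CV was 0.28, so at 48307580 counts or more in each library, precision for the members was set by differences among replicates rather than by counting error. The test was tested on simulated data. The rule for named genes was a panel of 18 members with values in every library and, per comparison, the 2 higher and 2 lower members with the smallest p, of which Aurka, E2f8 and Cdt1 are also given in every library, plus the 2 genes with the smallest p of each other pathway list; genes beyond it, among them Cenpf and Nusap1, were named after their values were seen. The GC content is that of the longest protein-coding transcript in GENCODE M21. The GC offset fits each library's log2 deviation on GC by a smooth curve (span 0.3), then enters it in the same edgeR fit; it and the split of members at their median GC were chosen after the data were seen. Promoter windows are RefSeq's on GRCm38.p6. Alternatives were DESeq2 1.42.0 and its size factors, limma 3.58.1 on log2(FPKM + 1) and log2(FPKM + 0.1), no filter and a filter of 5 FPKM, a replicate block, only the groups compared, each library left out, and the 2 sets of libraries that stood apart by Y-linked reads left out.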

Additional observations from a re-analysis of the deposited data

How the results depend on the processing

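No member was called by edgeR with DESeq2 size factors, either filter, the replicate block or only the groups compared, nor by limma with either pseudocount. For collagen without ultrasound the number called was 2 with DESeq2 and 1 with the GC offset and with the GC and length offset, both added after the data were seen, and 0 to 9 with 1 library left out; for ultrasound averaged over the membranes it was 17 without the 3 libraries lacking Y-linked reads. Without those 3 the median log2 fold change of the S phase members was 0.39 for ultrasound on PLLA/ZnO@Col, -0.071 for collagen without ultrasound, 0.27 for averaged ultrasound and 0.10 for the effect on PLLA/ZnO@Col minus that on PLLA/ZnO, and the mitosis median of the last was -0.068. Without the 4 libraries with part of the Y-linked reads the S phase median was -0.032 for ultrasound on PLLA/ZnO@Col and 0.033 for averaged ultrasound. With 1 library left out the S phase median ran from -0.011 to 0.24 for ultrasound on PLLA/ZnO@Col, from -0.11 to 0.018 for zinc oxide without ultrasound and from -0.0057 to 0.15 with it, from 0.099 to 0.34 for collagen without ultrasound and from 0.045 to 0.28 with it. For the effect on PLLA/ZnO minus that on PLLA it ran from 0.075 to 0.21, and for PLLA/ZnO@Col minus PLLA/ZnO from -0.23 to -0.026. The mitosis median ran from -0.010 to 0.13 for ultrasound on PLLA, from 0.091 to 0.26 on PLLA/ZnO and from -0.17 to 0.084 on PLLA/ZnO@Col, from -0.095 to 0.045 for zinc oxide with ultrasound and from 0.023 to 0.23 for collagen without ultrasound. The cause of these shifts was not tested. Of the list medians and numbers of members called under the alternatives, 584 were scored as the same and 25 as moved. A list median was scored as moved if it shifted by the pooled SD between replicates or more. That SD was 0.092 log2 units for the S phase and 0.215 for the mitosis list. In the main fit only the mitosis median for PLLA/ZnO@Col minus PLLA/ZnO, at -0.33, lay further from 0 than 0.215. The other mitosis medians could change sign and still be scored as the same. Some S phase medians, such as 0.08 for ultrasound on PLLA, could too, so the number scored as the same does not measure stability. A number of members called was scored as moved if it was not 0, as in the main fit, so a 0 that stayed at 0 was scored as the same. With the replicate block 0 members were called. For averaged ultrasound the block gave 21.1% of all genes an unadjusted edgeR p under 0.05, against 12.1% without it. Whether replicate numbers pair the libraries was not settled. Over 45 same-numbered pairs the correlation of deviations had a median of 0.07 (range -0.49 to 0.71), against -0.021 over pairs of unlike number. Of the same-numbered pairs 21 of 45 were over 0.1, and 11 of 18 libraries correlated best with a library of their own number.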
